A study of Mus musculus with 12 samples.

Results

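Antioxidant enzymes remove superoxide and peroxides or repair the proteins they oxidise. They were examined here as the probe sets that carry exactly 1 gene symbol in the platform annotation, where that symbol is Cat, Sod1, Sod2, Gpx1, Gpx4, Prdx1, Prdx2, Prdx3, Prdx5 or Msrb1. This rule gave 8 of the 10 genes, measured by 11 of the 12422 probe sets tested. Prdx2 had 3 probe sets and Cat had 2, and each of Sod1, Sod2, Gpx1, Gpx4, Prdx3 and Msrb1 had 1. The 2 probe sets of Prdx1 carry a second symbol, Gm21399, and were not used, and no probe set carried the symbol Prdx5.

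All RNA came from 1 adult mouse of the strain NMR-1, from liver, cortex and cerebellum. The standard procedure, called 1X, started from 5 µg of total RNA with 1 linear amplification and had 1 array per tissue. The other, called 3X, started from 1 ng with 3 linear amplifications, made with the RiboAmp HS kit, and had 3 technical replicates per tissue, which gave 12 arrays in 6 groups. Input, kit and number of amplifications differ together between 1X and 3X, and p-values measure the spread between arrays of a single animal.

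Superoxide dismutases turn superoxide into hydrogen peroxide, Sod1 in the cytosol and Sod2 in mitochondria. Catalase (Cat) breaks down hydrogen peroxide in peroxisomes. Glutathione peroxidases use glutathione for this, Gpx1 on hydrogen peroxide and Gpx4 on lipid peroxides in membranes, while peroxiredoxins use a reactive cysteine and are recharged by thioredoxin, Prdx2 in the cytosol and Prdx3 in mitochondria. Msrb1 reduces oxidised methionine in proteins, and like Gpx1 and Gpx4 it is a selenoprotein, with selenocysteine at its active site. Liver is known for abundant peroxisomes and catalase, and neurons and red blood cells for Prdx2.

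Signals are log2 values made by the authors with RMA, a method that corrects background, normalizes the arrays by quantiles and summarises the probes of a set. Signals of different probe sets are not compared with each other, because probes differ in brightness. The array medians lay between 3.45 and 3.48, and no detection call exists, so a difference against a signal well below them is no measured ratio of RNA. The labels of liver against brain were checked with marker lists. Of 13 measured hepatocyte genes 12 were higher in liver than in brain at 3X (8.17% of all probe sets). Of 14 neuronal genes 9 were lower (12.3% of all). No list was made to tell cortex from cerebellum, so those labels were not checked against each other. Liver replicate 3 of the 3X arrays stood apart: its Pearson correlation over probe sets with replicates 1 and 2 was 0.977 and 0.979, against 0.990 between those, and with the 1X liver array it was 0.928, against 0.894 and 0.893. Its deviations from the liver mean correlated with those of replicate 3 of cortex (0.34) and of cerebellum (0.29). Results whose call changes without it are given both ways.

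**Figure D1:**
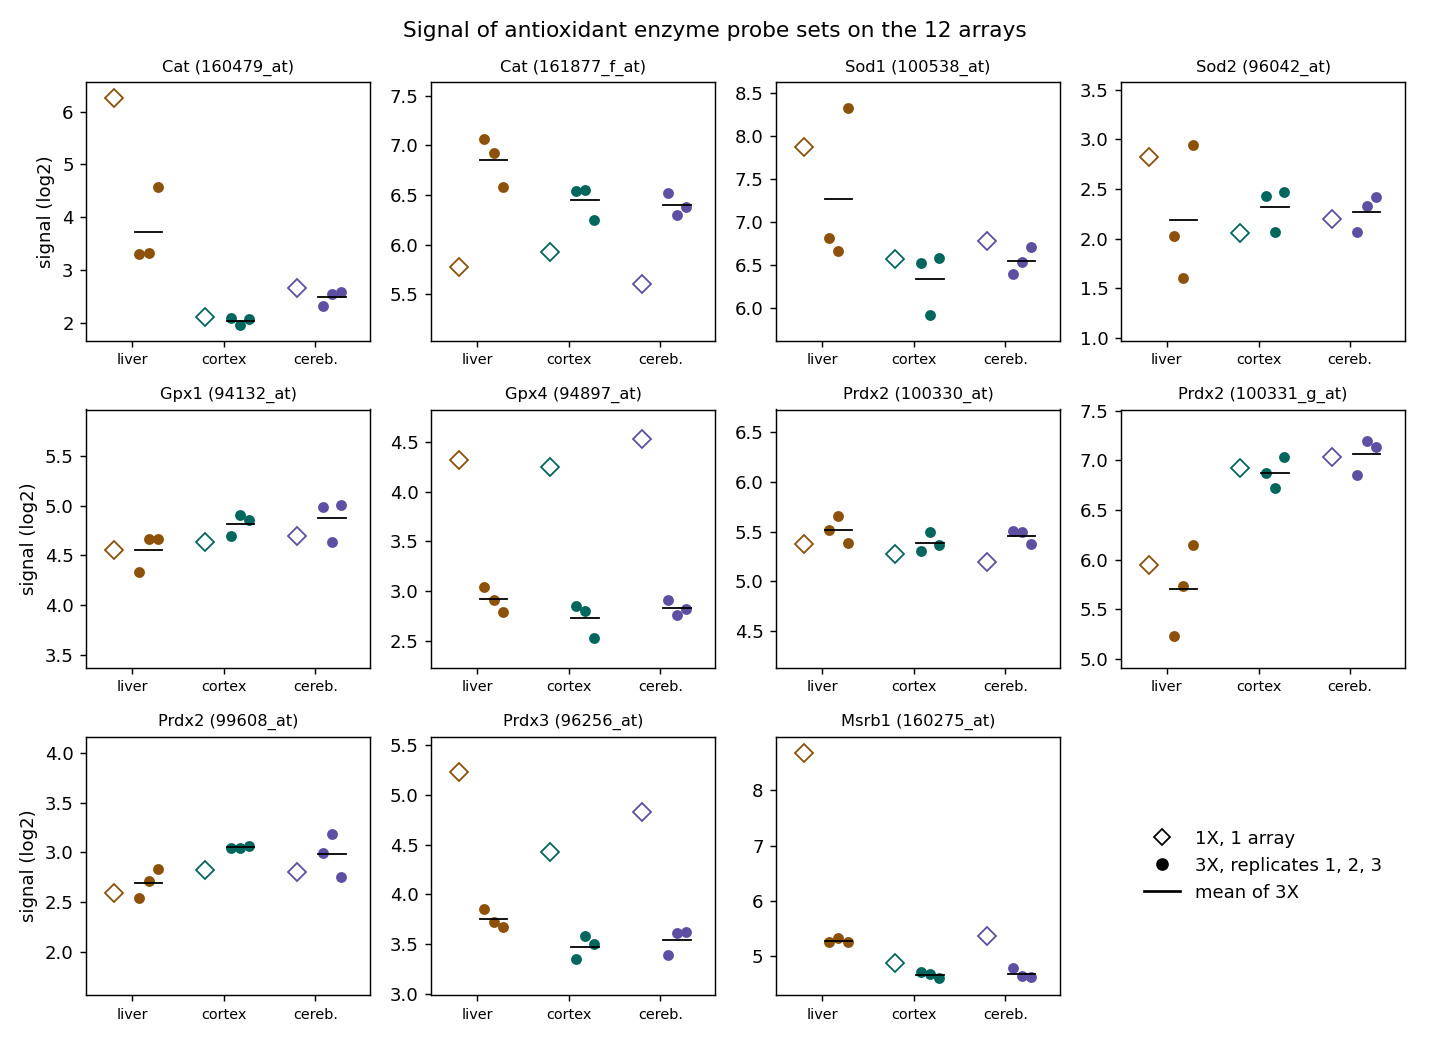
Signal (log2) of each of the 11 probe sets on the 12 arrays, with tissues on the x axis, 1X arrays as open diamonds, 3X replicates 1, 2 and 3 as filled points from left to right and the 3X mean as a line. In liver, the 1X arrays of Cat (160479_at) and Msrb1 stand far above their 3X arrays, and the third 3X point is the highest for Cat (160479_at), Sod1 and Sod2.

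At 3X, catalase and Msrb1 were higher in liver than in brain, and 2 of the 3 Prdx2 probe sets were lower. Each tissue difference at 3X is liver minus the mean of cortex and cerebellum on the log2 scale, with its standard error (SE), from limma's moderated test. P-values were adjusted for all 12422 probe sets by Benjamini-Hochberg, and those under 0.05 count as calls. Of the 11 probe sets 5 were called. Across all probe sets 20.4% were called. The 3 called higher were both Cat probe sets and Msrb1 (8.17% of all probe sets were called higher), and the 2 called lower were probe sets of Prdx2 (12.3% of all). The median difference of the 11 was 0.14, against 0.01 over all probe sets.

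The sequences around the start sites of the genes called between liver and brain are shown to set the motifs near them side by side. They are RefSeq promoters of assembly GRCm38.p6, 250 bases before to 50 after the start, for Cat (chr2:103485104-103485403, minus strand), Msrb1 (chr17:24736343-24736642, plus strand) and Prdx2 (chr8:84969372-84969671, plus strand). Capitals mark, on either strand, the GC box GGGCGG, the CCAAT box CCAAT, the TATA box TATAAA and the core of the antioxidant response element TGACNNNGC, which the stress factor NRF2 is known to bind.
Cat: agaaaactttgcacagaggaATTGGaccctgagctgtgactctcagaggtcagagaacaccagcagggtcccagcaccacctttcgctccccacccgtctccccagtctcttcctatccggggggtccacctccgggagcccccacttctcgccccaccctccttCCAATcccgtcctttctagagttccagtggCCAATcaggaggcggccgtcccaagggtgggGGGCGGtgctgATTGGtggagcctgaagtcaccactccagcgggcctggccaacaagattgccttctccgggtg
Msrb1: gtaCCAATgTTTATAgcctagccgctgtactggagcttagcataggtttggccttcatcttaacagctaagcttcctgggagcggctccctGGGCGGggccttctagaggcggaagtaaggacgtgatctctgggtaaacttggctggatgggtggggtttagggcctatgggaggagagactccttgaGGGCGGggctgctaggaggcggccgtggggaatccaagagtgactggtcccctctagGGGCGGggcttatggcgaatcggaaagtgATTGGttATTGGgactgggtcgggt
Prdx2: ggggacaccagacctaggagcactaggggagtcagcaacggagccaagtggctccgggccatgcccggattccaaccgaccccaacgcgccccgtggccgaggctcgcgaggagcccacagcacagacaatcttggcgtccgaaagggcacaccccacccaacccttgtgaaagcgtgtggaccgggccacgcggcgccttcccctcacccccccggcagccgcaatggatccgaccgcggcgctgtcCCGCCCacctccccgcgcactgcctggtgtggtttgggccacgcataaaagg
The Cat window holds 4 CCAAT boxes and 1 GC box. The Msrb1 window holds 3 of each, and 1 TATA box 241 bases before the start. The Prdx2 window holds 1 GC box and none of the other motifs. For the 10 genes there are 13 windows, 2 of the 4 Gpx4 windows overlapping for most of their length. The choice of these windows passed over 1 chromosome, which the count over all promoters kept. A GC box was found in 12 of the 13, against 35.7% of all 32851 promoters of the same length, and a CCAAT box in 7, against 37.4%. The antioxidant response element core was found in 2, those of Sod1 and Prdx1, against 12.4% of all promoters, and TATAAA in 4, against 13.6%. A match describes letters in the window and is no evidence of binding.

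The Cat probe set 160479_at had a signal of 6.25 in liver at 1X. On the 3X liver arrays it stood at 3.29, 3.31 and 4.56 in replicates 1, 2 and 3. In cortex it was 2.10 at 1X and 2.09, 1.96 and 2.06 at 3X, and in cerebellum 2.65 at 1X and 2.32, 2.53 and 2.58 at 3X. Every liver array lay above every brain array in both procedures. The 3X difference was 1.47 ± 0.24 (SE; limma adjusted p = 0.00135; 3 arrays of liver, 6 of brain), and the 1X difference, from single arrays, was 3.88. Liver replicate 3 raised the 3X value: without it the difference was 1.04 ± 0.09 (adjusted p = 8.10e-06). The liver SD of 0.73 was far above that of cortex (0.07) and cerebellum (0.14), so the shared SE understates the spread in liver. All brain signals lay below the array medians, so no fold is given.

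The other Cat probe set, 161877_f_at, carries a suffix of the array's maker for probes of lower specificity, and showed no liver excess at 1X. The 1X signals were 5.78 for liver, 5.93 for cortex and 5.61 for cerebellum, a liver difference of 0.01. At 3X it stood at 7.06, 6.93 and 6.59 in liver, above all 6 brain arrays, which ranged from 6.25 to 6.55. The 3X difference was 0.43 ± 0.12 (1.35-fold; limma adjusted p = 0.0232), and 0.57 ± 0.11 without liver replicate 3. Its call was lost without liver replicate 1 (0.33, adjusted p = 0.105), without liver replicate 2 (0.40, adjusted p = 0.0876) and without cerebellum replicate 2 (0.41, adjusted p = 0.0548). The mean of both Cat probe sets was higher in liver at 3X by 0.95 ± 0.10 (limma adjusted p = 5.29e-05). Its SE is below that of either probe set. Liver replicate 3 lay above the mean of replicates 1 and 2 by 1.26 for 160479_at, but below it by 0.41 for 161877_f_at. Such opposite deviations partly cancel in the mean, and the limits of both probe sets carry over to it.

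Msrb1 had the narrowest spread of the called probe sets. Its signal in liver was 8.67 at 1X and 5.26, 5.32 and 5.25 at 3X. In cortex it was 4.87 at 1X and 4.60 to 4.71 at 3X, and in cerebellum 5.37 at 1X and 4.63 to 4.78 at 3X. The liver arrays lay above all brain arrays of the same procedure. The 3X difference was 0.61 ± 0.07 (1.52-fold; limma adjusted p = 8.42e-05) and stayed between 0.59 and 0.62 without any one liver array. The 1X difference from single arrays was 3.55.

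The Prdx2 probe set 100331_g_at, which also carries a suffix, was lower in liver in both procedures. At 1X it stood at 5.94 in liver, below 6.92 in cortex and 7.03 in cerebellum. At 3X liver had 5.23, 5.74 and 6.15, cortex 6.87, 6.72 and 7.03, and cerebellum 6.85, 7.19 and 7.13. No liver array reached the lowest brain array of 6.72. The difference was -1.27 ± 0.17 at 3X (2.40-fold; limma adjusted p = 0.000379) and -1.03 at 1X. Without liver replicate 3 the 3X difference was -1.49 ± 0.14. The liver SD of 0.46 was above that of cortex (0.16) and cerebellum (0.18). The dim probe set 99608_at differed by -0.32 ± 0.10 (adjusted p = 0.0472), with liver at 2.54 to 2.83 and brain at 2.75 to 3.19, which overlap. That call was lost without liver replicate 1 (adjusted p = 0.185) or 2 (0.109), without any one of cortex replicates 1, 2 and 3 (0.0853, 0.0742 and 0.0875), without cerebellum replicate 1 (0.0852) or 2 (0.0826), and after quantile normalization (0.0592) or median centring (0.0502).

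The third Prdx2 probe set, 100330_at, showed 5.39 to 5.66 in liver and 5.31 to 5.51 in brain at 3X, a difference of 0.10 ± 0.08 (limma adjusted p = 0.488). The 3 probe sets therefore disagree: 2 were called lower in liver and this one was not called, with an estimate on the other side of 0. Their mean differed by -0.50 ± 0.09 (adjusted p = 0.00226). Red cells also hold Prdx2. Of 6 measured erythroid genes 2 were lower in liver (12.3% of all probe sets), the globins Hbb-b2 (-1.18 ± 0.21) and Hba-a1 (-0.99 ± 0.12), and 1 was higher (8.17% of all), Epb42 (0.30 ± 0.09), with a list median of -0.04. The mean erythroid signal was 4.75 to 4.97 on the 3X liver arrays, 4.84 to 4.99 in cortex and 5.26 to 5.34 in cerebellum, so liver and cortex overlap. Hba-a1 was also lower in cortex than in cerebellum, by -0.99 ± 0.14 (limma adjusted p = 0.00502). There 100331_g_at differed by -0.19 ± 0.20 (limma adjusted p = 0.915), an estimate whose SE is too wide to decide on a difference. The part of red cells in the Prdx2 values was not tested in either comparison.

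The genes whose profile over the 12 arrays was most like that of 100331_g_at were Tprgl, Hsp90aa1 and Xpr1. Their root-mean-square distances, after each probe set's own mean was subtracted, were 0.15, 0.16 and 0.17 on the log2 scale. Prdx2 was the single gene for which they were sought, since its probe set with the highest mean was the one of the 8 genes that differed at least 2-fold between liver and brain at 3X.

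**Figure D2:**
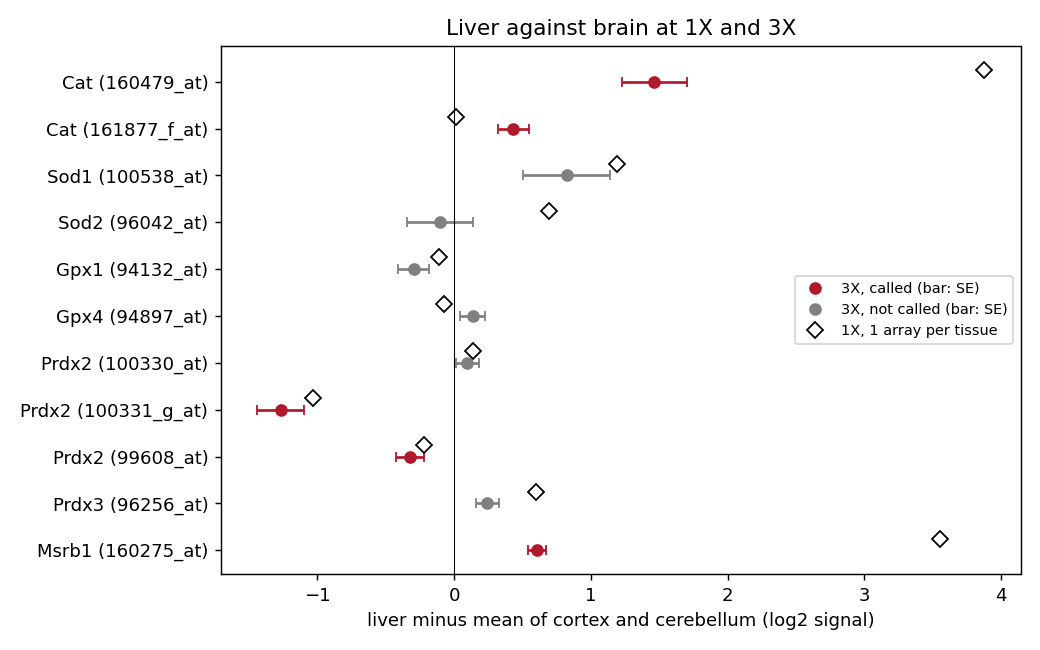
Liver minus the mean of cortex and cerebellum (x axis, log2 signal) for each probe set, as the limma estimate with its SE at 3X (filled points, red where called) and as single arrays at 1X (open diamonds). From 1X to 3X, Cat (160479_at) moves from 3.88 to 1.47, Msrb1 from 3.55 to 0.61 and Prdx2 (100331_g_at) from -1.03 to -1.27.

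Sod1 and Sod2 turned on a single liver array. Sod1 had 7.87 in liver, 6.58 in cortex and 6.78 in cerebellum at 1X. At 3X liver had 6.82, 6.67 and 8.33, while cortex had 6.53, 5.93 and 6.58 and cerebellum 6.40, 6.54 and 6.71. The lowest liver array lay within the range of the brain arrays. The difference was 0.82 ± 0.32 (limma adjusted p = 0.102). Without liver replicate 3 it was 0.30 ± 0.16 (adjusted p = 0.226), and without liver replicate 2 it was 1.12 ± 0.33 and called (adjusted p = 0.0471).

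Sod2 was dim on every array. It stood at 2.82 in liver, 2.05 in cortex and 2.19 in cerebellum at 1X, and at 2.03, 1.60 and 2.95 in liver at 3X, around the brain arrays at 2.06 to 2.46. The difference was -0.10 ± 0.24 (limma adjusted p = 0.828). Without liver replicate 3 it was -0.48 ± 0.15 and called (adjusted p = 0.0355), opposite in sign to the single-array difference of 0.69 at 1X. Liver replicate 3 lay above the mean of replicates 1 and 2 by 1.58 for Sod1, 1.26 for Cat (160479_at) and 1.13 for Sod2. It lay below that mean by 0.04 for Msrb1 and by 0.41 for the other Cat probe set.

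**Figure D3:**
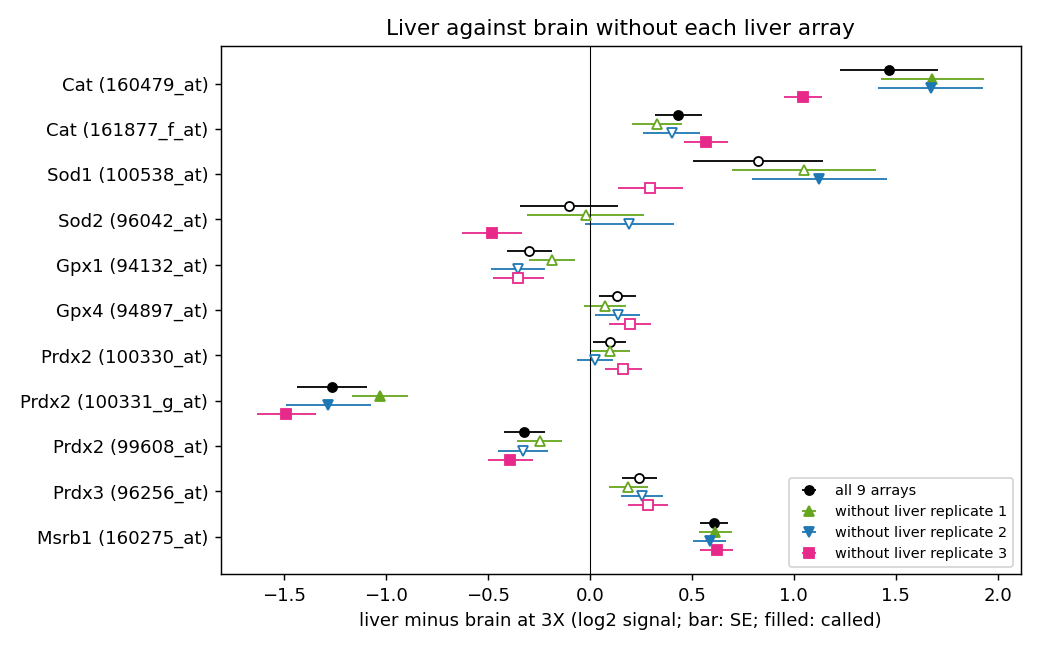
Liver minus brain at 3X (x axis, log2 signal, bars are SE) for each probe set with all 9 arrays and without each liver replicate in turn; filled symbols are called. Without replicate 3, Sod2 moves from -0.10 to -0.48, Sod1 from 0.82 to 0.30 and Cat (160479_at) from 1.47 to 1.04, while Msrb1 stays near 0.61.

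The glutathione peroxidases and Prdx3 were not called between liver and brain. Gpx1 was at 4.56 in liver, 4.63 in cortex and 4.69 in cerebellum at 1X. At 3X it was 4.33 to 4.66 in liver, 4.69 to 4.91 in cortex and 4.63 to 5.01 in cerebellum, a difference of -0.30 ± 0.11 (limma adjusted p = 0.0979). It was called without cerebellum replicate 2 (-0.36, adjusted p = 0.0391). Gpx4 differed by 0.14 ± 0.09 (adjusted p = 0.371) at dim 3X signals of 2.53 to 3.04. Prdx3 lay higher on all 3X liver arrays (3.86, 3.72 and 3.67) than on the brain arrays (3.35 to 3.62), as did 9.1% of all probe sets. Its difference was 0.24 ± 0.09 (adjusted p = 0.0730), in the same direction as 0.60 at 1X.

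Against each region alone, the order of the levels was the same for the clearest genes. Between liver and cortex 3 of the 11 probe sets were called (16.8% of all), 2 of them higher in liver (6.64% of all) and 1 lower (10.1%). Between liver and cerebellum 4 were called (16.6% of all), 3 higher (6.38%) and 1 lower (10.2%). Cat (160479_at), at 1.69 ± 0.28 and 1.24 ± 0.28, Msrb1, at 0.62 ± 0.08 and 0.60 ± 0.08, and Prdx2 (100331_g_at), at -1.17 ± 0.20 and -1.36 ± 0.20, were called in both, with limma adjusted p from 0.000259 to 0.0109. The fourth call against cerebellum was the other Cat probe set (0.46 ± 0.13; adjusted p = 0.0419), which was lost without any one of the liver replicates 1 and 2, the cortex replicates 1 and 2 and the 3 cerebellum replicates (adjusted p from 0.0530 to 0.147), and after quantile normalization (0.44, adjusted p = 0.0559) or with the 1X arrays added (0.39, 0.0670). Against cortex it was called without liver replicate 3 (0.55, adjusted p = 0.00707). Prdx2 (99608_at) was called against cortex without liver replicate 3 (-0.42, adjusted p = 0.0326) or cerebellum replicate 2 (-0.36, 0.0466) or 3 (-0.36, 0.0374), and against cerebellum without cerebellum replicate 3 (-0.40, 0.0443). With the 1X arrays added to an additive fit, Msrb1 lost its calls against cortex (1.41, adjusted p = 0.0537) and cerebellum (1.27, 0.0804). Both comparisons share the liver arrays.

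Between cortex and cerebellum no member passed the test. None of the 11 probe sets was called by limma at 3X, and none had an unadjusted p under 0.05. Across all probe sets 1.06% were called. The largest difference was that of Cat (160479_at), lower in cortex by -0.44 ± 0.28 (limma adjusted p = 0.771), with all 3 cortex arrays below all 3 cerebellum arrays (8.56% of all probe sets). With the spread from the 6 brain arrays alone it was called (adjusted p = 0.0433), and so it was without liver replicate 3 (adjusted p = 0.0351). The 1X difference was -0.55. The other 10 differences lay between -0.20 and 0.07.

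Genes of a kidney tubule list moved with the cerebellum label. Of 25 measured genes of this list 10 were higher in cerebellum than in cortex at 3X and none was lower (0.628% of all probe sets were called lower in cortex). The list also holds Pvalb and Calb1, which are not particular to kidney, and Cyp2e1, which is on the hepatocyte list too. Their mean signal was 3.94 to 4.01 on the cerebellum arrays and 3.29 to 3.37 on the cortex arrays at 3X, and 4.13 and 3.17 at 1X. One of the 10 is Gpx3, the secreted glutathione peroxidase that kidney tubule cells make. It stood at 6.73 in cerebellum, 2.51 in cortex and 1.44 in liver at 1X, and its 3X difference was -0.88 ± 0.13 (adjusted p = 0.00677). The part of kidney-type RNA in the Cat difference was not tested.

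The 3X procedure gave lower signals than 1X for Gpx4, Prdx3 and Msrb1 and a higher signal for one Cat probe set. The difference is 3X minus 1X in a model with tissue over all 12 arrays. Of the 11 probe sets 4 were called, against 56.9% of all probe sets. The 3 called lower compare with 19.5% of all, and the 1 called higher with 37.5%. The median of the 11 was -0.09, while the median of all probe sets was 0.12, or 0.08 after quantile normalization and 0.14 after median centring.

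Gpx4 fell by 1.54 on the log2 scale (SE 0.09; limma adjusted p = 4.35e-07), from 4.31, 4.25 and 4.53 in liver, cortex and cerebellum at 1X to between 2.53 and 3.04 at 3X. Prdx3 fell by 1.24 (SE 0.10; adjusted p = 4.28e-06), from 5.23, 4.43 and 4.83 to between 3.35 and 3.86. For both, the 1X array lay above every 3X array of its tissue in all 3 tissues, as for 15.9% of all probe sets. Gpx4 crossed from above to below the array medians, where its 3X signals are dim. The Cat probe set 161877_f_at rose by 0.80 (SE 0.12; adjusted p = 0.000394), with 1X below every 3X array in all 3 tissues, as for 36.9% of all probe sets.

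Msrb1 fell by 1.43 (SE 0.43; limma adjusted p = 0.0159), but most of this came from liver. The 1X array lay above all 3X arrays in each tissue, by 3.39 over the mean in liver, where 8.67 at 1X stood against 5.28 at 3X. In cortex the 3X mean differed from 1X by -0.21 and in cerebellum by -0.69. Without the 1X liver array the value was -0.45 ± 0.10 and still called (adjusted p = 0.00367). With the 3 tissues as units it was no longer called (adjusted p = 0.200).

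The same was seen for Cat (160479_at), at -2.53 in liver, -0.07 in cortex and -0.17 in cerebellum. Over the tissues it stood at -0.92 ± 0.41 and was not called (limma adjusted p = 0.0753), with -0.12 without the 1X liver array and -1.35 and a call without the 1X cortex array (adjusted p = 0.0376). After quantile normalization it was called (adjusted p = 0.0401). The 2 Cat probe sets thus stood on opposite sides of 0, and their mean was -0.06 ± 0.17 (adjusted p = 0.759).

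A moderated F test of the interaction asked whether the 3X minus 1X difference depended on tissue, taking the lone 1X array of a tissue to vary like the 3X arrays. It called Msrb1 (F = 241; limma adjusted p = 3.77e-06) and Cat 160479_at (F = 12.6; adjusted p = 0.0212), 2 of the 11 probe sets, against 10.4% of all. F values at least as large as that of Msrb1 were found for 8 of the 12422 probe sets, Msrb1 included. Both results rest on the single 1X liver array: between cortex and cerebellum alone neither was called (adjusted p = 0.774 and 1.00). Without liver replicate 3, Cat stood at F = 146 (adjusted p = 2.26e-06), and Sod2 was called too (F = 10.2; adjusted p = 0.0269). After quantile normalization Cat was not called (F = 9.08; adjusted p = 0.0584).

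Set against other liver genes, the tissue difference of Msrb1 was much smaller at 3X than at 1X. Of the 238 probe sets that were at least 3 log2 units higher in liver than in brain at 1X, 232 were called higher at 3X too. Their median 3X difference was 2.12, and 56 of them (23.5%) stood under 1. Msrb1, at 0.61, was among the lowest 22, and Cat (160479_at), at 1.47, among the lowest 84. The limit of 3 was set after these values were seen, and choosing by a single 1X array favours large 1X values. In all, 6.54% of probe sets were at least 2-fold higher and 6.65% at least 2-fold lower in liver at 1X, against 2.33% and 3.17% at 3X.

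The other probe sets stood closer to 0 between the procedures, and none was called in the main comparison. Sod1 stood at -0.35 ± 0.30 (limma adjusted p = 0.321), and at -0.51 with a call without liver replicate 3 (adjusted p = 0.0419). Sod2, at -0.09 ± 0.25, and Gpx1, at 0.12 ± 0.10, were not called. The Prdx2 probe sets 100330_at and 99608_at stood at 0.17 each and 100331_g_at at -0.08. Of these, 100330_at was called after quantile normalization (0.27, adjusted p = 0.0116), after median centring (0.19, 0.0361), without liver replicate 3 (0.20, 0.0312) and without cortex replicate 1 (0.19, 0.0498), and 99608_at without cerebellum replicate 3 (0.20, 0.0455).

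**Figure D4:**
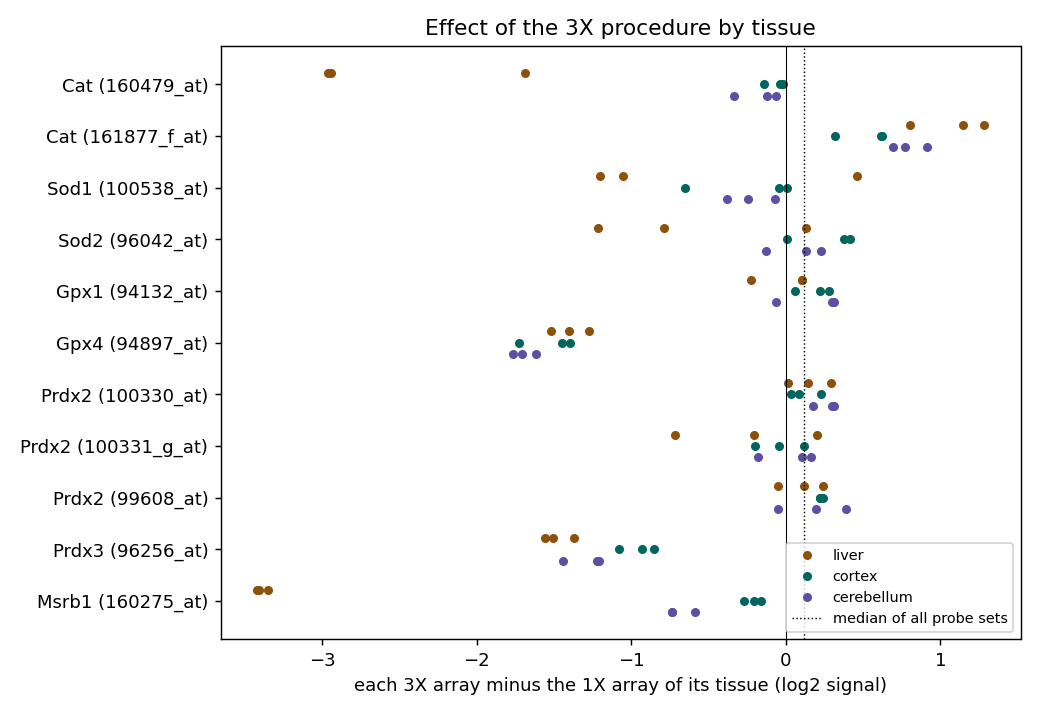
Each 3X array minus the 1X array of its tissue (x axis, log2 signal) for the 11 probe sets, coloured by tissue; the dotted line marks the median of all probe sets, 0.12. Gpx4 and Prdx3 are lowered in all 3 tissues by similar amounts, while Cat (160479_at) and Msrb1 are lowered mainly in liver.

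The other genes of these pathways were read from lists, with the probe set of the highest mean for each gene. Their calls between liver and brain at 3X are read against 20.4% of all probe sets called, 8.17% higher and 12.3% lower. Of 7 other peroxide and superoxide enzymes none was higher and 1 was lower, Gpx3 (-0.58 ± 0.11), with a list median of 0.21, against 0.01 over all probe sets. The 3X means of Gpx3 were 1.64 in liver, 1.78 in cortex and 2.66 in cerebellum, all below the array medians. Against cerebellum alone 1 gene of this list was called lower in liver, and against cortex alone none was. Prdx4, the peroxiredoxin of the endoplasmic reticulum, stood at 0.63 ± 0.20 and was not called (limma adjusted p = 0.0545). None of 8 genes of the thioredoxin system, which recharges peroxiredoxins, was called, although 4 had an unadjusted p under 0.05, and the list median was 0.12. Of 4 genes for repair of oxidised proteins 1 was lower, the stress gene Sesn1 (-0.47 ± 0.13), with a median of -0.16.

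Of 18 glutathione transferases, which attach glutathione to toxic compounds, 10 were higher in liver and 2 lower, with a median of 0.67 (8.17% and 12.3% over the whole array). The largest were Mgst1 (5.07 ± 0.18), Gsta3 (4.85 ± 0.23) and Gstz1 (3.45 ± 0.17), and Gstm5, on a suffixed probe set, was lower (-2.97 ± 0.17). Of 8 genes of glutathione synthesis and turnover 1 was higher, Gclm, a subunit of the enzyme of the first step (0.67 ± 0.13), and 1 was lower, Slc3a2, a subunit of amino acid transporters (-0.45 ± 0.09), with a median of 0.03. Of 9 genes of NADPH supply 2 were higher, H6pd (1.12 ± 0.09) and Idh2 (0.30 ± 0.08), and 2 were lower, Tkt (-0.56 ± 0.16) and Pgd (-0.29 ± 0.09), with a median of 0.14. Adjusted p from limma was at most 0.0368 for each of these.

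Peroxisomal genes, which share the organelle of catalase, were higher in liver for 6 of 20 and lower for none, with a median of 0.20 (8.17% of all probe sets were higher and 12.3% lower). They were led by the urate oxidase Uox (3.52 ± 0.50), the thiolase Acaa1a (1.89 ± 0.21), the sterol carrier Scp2 (1.72 ± 0.17) and Ech1 (1.44 ± 0.18). Of 12 genes for selenoproteins and selenocysteine 1 was higher, Sephs2, which makes the selenium donor (0.79 ± 0.10), and 2 were lower, the deiodinase Dio2 (-0.74 ± 0.16) and Selenof (-0.47 ± 0.14), with a median of -0.03. Sephs2 resembled Msrb1 in its values: it stood at 5.82 in liver against 2.19 in both brain regions at 1X, and at 2.68, 1.93 and 1.86 in liver, cortex and cerebellum at 3X. These 3X signals were dim. Of 10 genes that produce hydrogen peroxide or superoxide 1 was higher, the aldehyde oxidase Aox1 (0.65 ± 0.09), with a median of 0.07. The selenoprotein and producer counts lie near the shares over all probe sets.

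**Figure D5:**
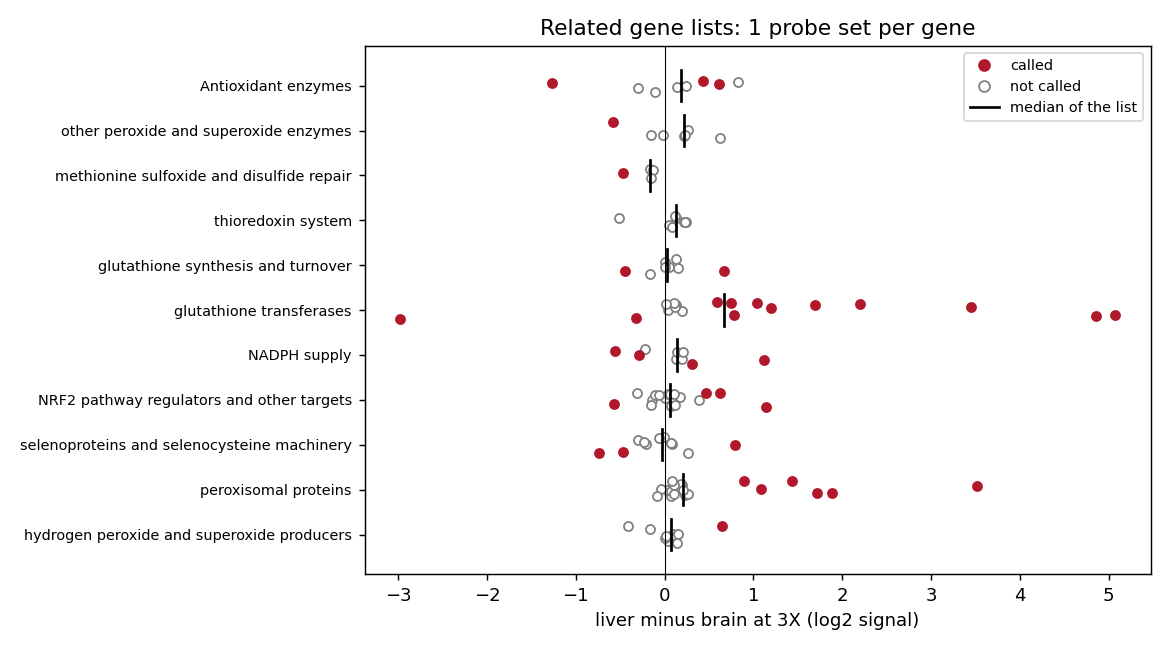
Liver minus brain at 3X (x axis, log2 signal) for each gene of the antioxidant enzymes and 10 related lists, with 1 probe set per gene; red points are called, open points are not and the line is the median of the list. Glutathione transferases reach from -2.97 to 5.07 with a median of 0.67, and no gene of the thioredoxin system is called. Cat is shown by 161877_f_at (0.43) and Prdx2 by 100331_g_at (-1.27), their probe sets with the highest mean, both suffixed.

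Under the 3X procedure, the share called higher over the whole array was 37.5% and the share called lower 19.5%. NADPH supply genes were lower for 6 of 9 and higher for 1, led by Taldo1 (-2.03 ± 0.16), Nnt (-1.33 ± 0.26) and Tkt (-1.26 ± 0.18). Selenoprotein and selenocysteine genes were lower for 4 of 12, led by Selenot (-2.81 ± 0.13), Selenof (-1.72 ± 0.14) and Selenok (-1.51 ± 0.09), and higher for 2. Thioredoxin system genes were higher for 3 of 8, among them Txnip (1.40 ± 0.14) and Txnl1 (1.13 ± 0.20), and lower for 2, among them Txnrd1 (-0.76 ± 0.12), both near the shares over all probe sets. Glutathione transferases were lower for 5 of 18, led by Gstp1 (-2.92 ± 0.22), and higher for 3, led by Gstm5 (2.65 ± 0.16). All named here were called by limma, with adjusted p of 0.00154 or lower. The medians of these 4 lists were -0.59, 0.05, -0.06 and -0.08, against 0.12 over all probe sets. Of the 7 other peroxide and superoxide enzymes 2 were higher and 2 lower, of the 8 genes of glutathione synthesis 2 and 3, of the 20 peroxisomal genes 5 and 5, of the 10 producers of peroxide or superoxide 5 and none, and of the 4 repair genes none and 1.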

How the data were processed

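Per the submitters' processing notes, the authors made the deposited log2 signals with RMA. Base 2 was inferred from the highest value, 14.46; no source used here states it, nor whether RMA was run on the 12 arrays together. Of 12488 probe sets, the 66 control probe sets were left out, which left 12422: 10833 with 1 gene symbol, 396 with several and 1193 with none. Genes were named from probe sets with 1 symbol.

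Tissues were compared in limma 3.58.1 (R 4.3.3; lmFit, contrasts.fit, eBayes, two-sided) on the 9 3X arrays, with a single spread. The procedure effect came from an additive model of tissue and procedure over all 12 arrays and its tissue dependence from a moderated F over the 6 group means. P-values were adjusted by Benjamini-Hochberg over all 12422 probe sets, with calls at 0.05. For arrays depth has no count, and their number limits the precision.

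The members, lists, tests and the rule for named genes were chosen with earlier results of these data known. Every member probe set was described. Of each list up to 4 called genes with the largest difference between liver and brain were named. For the other comparisons the limit was 3. Prdx4 was named outside this rule, since it was not called. Alternatives were other scalings, filters, a mean per gene, robust eBayes with a trend, a replicate block, other sets of arrays, and each array left out in turn. The computation was tested on simulated data, with 50 changed probe sets for each size of change. A change of 0.5 log2 units was recovered for 50% between liver and brain, 42% between cortex and cerebellum and 68% between procedures. A change of 1 was recovered for 98%, 84% and 96%. Small differences can therefore be missed.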

Additional observations from a re-analysis of the deposited data

Results flagged for a closer look

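Msrb1 (160275_at) and Cat (160479_at) had a 3X minus 1X difference that depended on tissue in limma's moderated F test (F = 241.3 and 12.63; adjusted p = 3.77e-06 and 0.0212). In liver, cortex and cerebellum the differences were -3.39, -0.21 and -0.69 for Msrb1, and -2.53, -0.07 and -0.17 for Cat. Each liver value rests on 1 array at 1X.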

How the results depend on the processing

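No direction of a called value was reversed among 1100 recomputed values of single probe sets; 29 lost a call and 27 gained one. Of the 5 probe sets called between liver and brain, 3 calls were left with signals above the median, 3 without suffixed probe sets and 3 of 8 genes with a mean per gene. The count was 3 without liver replicate 1 and 6 without liver replicate 3. With all 12 arrays Sod1 (adjusted p = 0.0322) and Prdx3 (0.0217) gained a call and Cat 161877_f_at lost it (0.0596). Against cortex, 3 calls became 5 with all 12 arrays and ranged from 3 to 5 over the arrays left out. Against cerebellum, 4 became 2 with all 12 arrays and 2 without suffixed probe sets, with a range of 3 to 4. Between cortex and cerebellum, 0 became 1 with the brain arrays alone and ranged from 0 to 1. For tissue dependence, 2 became 1 with signals above the median and 1 after quantile normalization, and ranged from 0 to 3; the 0 is without the 1X liver array, which leaves only brain regions to compare. For the procedure the range over the arrays left out was 4 to 6. Quantile normalization added calls for Cat 160479_at (limma adjusted p = 0.0401) and Prdx2 100330_at (0.0116). Median centring added that of Prdx2 100330_at (0.0361). Some other settings gave fewer calls: Msrb1 lost its call with tissues as units (limma adjusted p = 0.200). Gpx4 was not tested among signals above the median, nor Cat 161877_f_at without suffixed probe sets, and the mean of the Cat probe sets was not called. Over all probe sets, calls between cortex and cerebellum were 132, and 262 with the brain arrays alone, 250 without liver replicate 3, and 82, 86, 88 and 88 without cerebellum replicate 2 or 3 or cortex replicate 1 or 3. For tissue dependence 1294 became 44 without the 1X liver array and 804 with signals above the median. Testing only signals above the median leaves fewer probe sets and so fewer calls: 1607 in place of 2537 for liver against brain and 3685 in place of 7073 for the procedure, which had 4690 with tissues as units. The shares called were higher with this filter. They were 25.9% against 20.4% for liver against brain, 59.3% against 56.9% for the procedure and 12.9% against 10.4% for tissue dependence.

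Replicate numbers are shared by the tissues at 3X. Deviations of same-numbered arrays correlated between -0.10 and 0.34 in 9 pairs, and 9 of 18 best matches had the same number. The highest correlations, 0.34, 0.30 and 0.29, were those between the replicate 3 arrays of the 3 tissues, a hint of shared deviations. For replicates 1 and 2 this was not seen in every pair. The main tests did not treat the arrays as paired and leave such sharing unmodelled. With a replicate block, 5 probe sets were called between liver and brain, with Sod1 gained (adjusted p = 0.0340) and Prdx2 99608_at lost (0.0561), 5 against cortex, 4 against cerebellum and 0 between the brain regions. No block was fitted for the procedure effect, since 1X arrays carry no number.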

Other observations

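Regulators of the antioxidant response and other NRF2 targets were called higher in liver than in brain at 3X for 3 of 17 genes and lower for 1 (8.17% and 12.3% of all probe sets). The epoxide hydrolase Ephx1 stood at 1.14 ± 0.10 and the export pumps Abcc3 and Abcc2 at 0.63 ± 0.06 and 0.47 ± 0.10, while the transcription factor Nfe2l1 was lower (-0.57 ± 0.08; limma adjusted p of 0.00568 or lower for all 4). Under the 3X procedure 6 genes of this list were higher and 6 lower (37.5% and 19.5% of all probe sets), and the 3 largest differences were falls: Nfe2l1 by 1.14, the autophagy receptor Sqstm1 by 0.80 and Nfe2l2, which encodes NRF2, by 0.71 (limma adjusted p of 0.0366 or lower). The value of Nfe2l2 came mostly from the single 1X liver array: from 1X to the 3X mean it went from 5.15 to 3.33 in liver, from 3.28 to 3.35 in cortex and from 3.69 to 3.30 in cerebellum (F of tissue dependence 38.8, limma adjusted p = 0.00062).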
